A study of Mus musculus with 10 samples.

Results

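The genes described here are 42 genes of blood and lymphatic endothelium, the cell layer that lines blood and lymph vessels. They were chosen by name from a list of endothelial surface proteins, receptors, ligands and transcription factors, and all 42 were found among the 55487 genes of the deposited count table. Polyadenylated RNA was sequenced from pancreatic tumours that arose in KPF mice, which model pancreatic cancer, on the C57BL/6J background. The wild-type group (Grem1wt/wt, 5 tumours) came from mice given the vehicle peanut oil, and the deleted group (Grem1∆/∆, 5 tumours) from mice given tamoxifen at 100 mg/kg, daily in each case, for 5 days, starting when mice were 5 weeks old. Mice were used at 6 to 12 weeks of age. Both groups share the KPF alleles, which the labels do not spell out, and the labels name neither the Cre line on which tamoxifen acts nor the cells that carry it. Genotype and tamoxifen go together in these groups and cannot be told apart. The Grem1 product, Gremlin 1, is secreted and binds and blocks bone morphogenetic proteins (BMPs).

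Endothelial cells depend on vascular endothelial growth factors (VEGFs), which bind the receptor kinases Flt1, Kdr and Flt4, and on angiopoietins, which bind the receptor kinase Tek. Kdr carries most of the growth signal in blood vessels, Flt1 acts largely as a decoy that takes up ligand, and Flt4 with its ligand Vegfc drives lymphatic growth. ETS factors such as Erg and Fli1 and SOX factors of the Sox7, Sox17 and Sox18 family maintain endothelial identity, and Prox1 sets the lymphatic fate. In bulk tumour RNA, fewer endothelial cells and less RNA per cell cannot be told apart.

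Total estimated counts ran from 10159891 to 18571519 per library. Grem1 itself did not check the labels: it was at 6.83 to 110 CPM in the tumours labelled deleted (counts scaled to a common library total after trimmed-mean normalization) against 3.97 to 43.1 CPM in wild-type tumours, with a log2 fold change of 1.08 (SE 0.79, exact two-sided permutation p = 0.381), so groups are named by their labels alone. Labelled-deleted tumour 1 was low in several marker sums: the summed level of 10 epithelial markers was 2020 CPM there and 3760 to 6360 CPM in the other 9 tumours, and that of 10 fibroblast markers was 9120 CPM against 16200 to 29400 CPM. The collagens Col1a1, Col1a2 and Col3a1 made up most of the fibroblast sum. Of its 10 markers 7 were lowest in that tumour and 0 highest, while Pdgfra was at 227 CPM there against 82.5 to 137 CPM in wild-type tumours. That value lay within the range of the other labelled-deleted tumours, 124 to 250 CPM. Labelled-deleted tumour 2 held intestinal transcripts, with 2950 CPM over 8 intestinal markers against no more than 124 CPM elsewhere. The labels describe bulk tissue, yet the protocol for extraction mentions sorted cells. Endothelial markers were present in every library: Pecam1, a junction adhesion protein of endothelium that platelets and leukocytes also carry, was at 27.6 to 164 CPM, and Cdh5, the endothelial cadherin, at 61.7 to 144 CPM.

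The 42 genes together took 0.094% to 0.267% of the counts of a library. A core of 12 broadly endothelial genes (Pecam1, Cdh5, Kdr, Tek, Tie1, Esam, Egfl7, Erg, Sox18, Robo4, Cldn5 and Clec14a) summed to 820, 356, 698, 686 and 520 CPM in wild-type tumours 1 to 5, and to 184, 359, 791, 398 and 575 CPM in labelled-deleted tumours 1 to 5. Wild-type tumour 1 and labelled-deleted tumour 3 were therefore the richest, wild-type tumour 2 and labelled-deleted tumours 1, 2 and 4 the poorest, and the groups overlapped. In 11 of the 12 core genes those 4 tumours were the 4 lowest, and in 8 of the 12 the 4 highest were wild-type tumours 1, 3 and 4 and labelled-deleted tumour 3. This order was taken from the sum of the same 12 genes, so part of that agreement is built in. Over all 42 genes, core included, the order was less common: 19 had the same 4 tumours lowest and 13 the same 4 highest. The share of all genes tested with this order was not counted. Of all 42 genes, 29 peaked in wild-type tumour 1 (13 genes) or labelled-deleted tumour 3 (16 genes). How many of all genes tested peaked in these tumours was not counted, so this count is not shown to be particular to the 42. Of the 42 genes, 26 were lowest in labelled-deleted tumour 1. That tumour was the lowest of the 10 in 29.4% of all genes tested and in 61.9% of these genes, and the highest in 27.9% of all genes and in 7.14% of these.

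**Figure D1:**
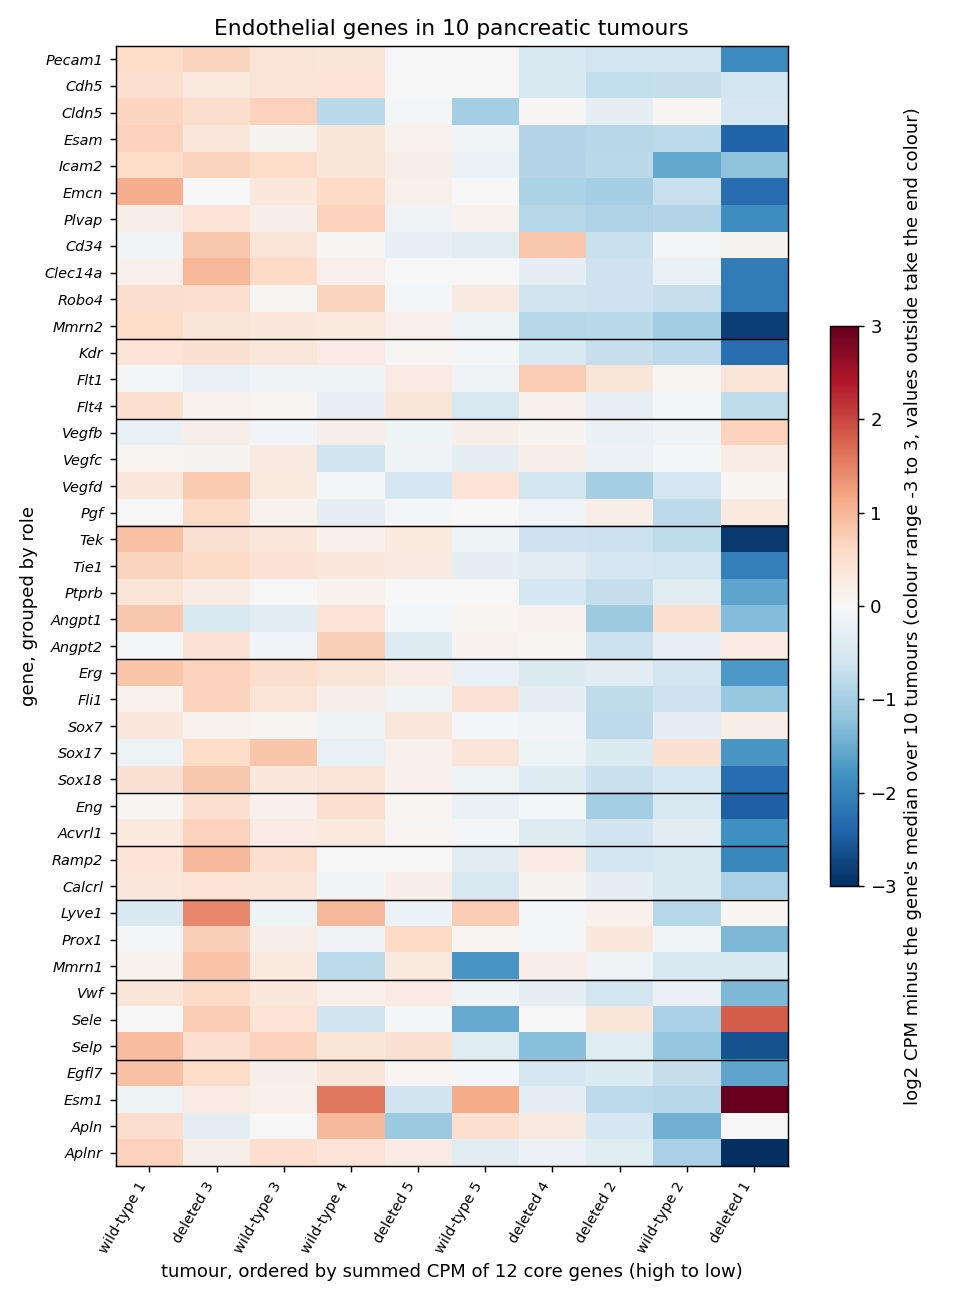
Log2 CPM of the 42 genes (rows, grouped by role with lines between roles) in each tumour (columns, from the highest to the lowest summed core level), as the difference from each gene's median over the 10 tumours. Most rows go from red on the left to blue on the right, while Flt1, Vegfb, Sele and Esm1 are red in the rightmost column, labelled-deleted tumour 1.

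Promoter sequences are shown for 2 genes that were low in labelled-deleted tumour 1 (Tek, Eng) and 3 that were not (Flt1, Sele, Esm1). Each is the 250 bases before a RefSeq transcript start in GRCm38.p6, read 5′ to 3′ on the gene's strand, and capitals mark each CGGAAG or AGGAAG on either strand, letters of the type that ETS factors such as Erg and Fli1 bind.
Tek, chr4:94739039-94739288, plus strand: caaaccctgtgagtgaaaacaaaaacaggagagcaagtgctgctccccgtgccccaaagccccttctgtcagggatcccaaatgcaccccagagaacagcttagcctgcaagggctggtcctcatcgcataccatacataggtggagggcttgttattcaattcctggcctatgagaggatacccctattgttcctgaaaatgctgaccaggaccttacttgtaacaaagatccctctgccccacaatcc
Eng, chr2:32646345-32646594, plus strand: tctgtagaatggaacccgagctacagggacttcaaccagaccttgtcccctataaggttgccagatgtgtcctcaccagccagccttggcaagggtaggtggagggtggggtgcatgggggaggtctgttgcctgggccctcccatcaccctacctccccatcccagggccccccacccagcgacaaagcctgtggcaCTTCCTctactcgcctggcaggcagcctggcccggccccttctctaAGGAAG
Flt1, chr5:147726012-147726261, minus strand: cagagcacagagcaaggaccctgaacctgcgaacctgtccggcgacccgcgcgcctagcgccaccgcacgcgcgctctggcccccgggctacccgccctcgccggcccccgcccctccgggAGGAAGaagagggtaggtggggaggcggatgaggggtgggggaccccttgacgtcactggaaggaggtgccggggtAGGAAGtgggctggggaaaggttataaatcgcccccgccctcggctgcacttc
Sele, chr1:164047984-164048233, plus strand: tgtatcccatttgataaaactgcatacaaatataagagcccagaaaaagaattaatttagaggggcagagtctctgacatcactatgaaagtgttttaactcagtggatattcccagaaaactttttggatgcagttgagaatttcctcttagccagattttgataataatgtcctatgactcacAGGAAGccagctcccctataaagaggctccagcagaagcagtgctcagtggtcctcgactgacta
Esm1, chr13:113209409-113209658, plus strand: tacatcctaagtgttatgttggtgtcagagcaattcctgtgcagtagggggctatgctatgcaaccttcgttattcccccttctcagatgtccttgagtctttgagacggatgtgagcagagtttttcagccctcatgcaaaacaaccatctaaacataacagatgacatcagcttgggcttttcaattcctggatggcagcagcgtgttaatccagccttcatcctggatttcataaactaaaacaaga
Eng and Flt1 held 2 matches each, Sele 1, and Tek and Esm1 0. RefSeq entries were found for 24 of the 42 genes, with 30 starts in all. Of these 30 windows, 13 (43.3%) held a match, against 39.2% of all 32851 windows of the same length. The letters AACAGGAA, a composite of FOX and ETS type whose end overlaps AGGAAG where a G follows, were in 3 of the 30 windows (those of Emcn, Calcrl and Egfl7), 10%, against 2.25% of all. AACAAT, of SOX type, was in 5 (16.7%, against 9.42% of all), and TATAAA, the TATA box, in 5 (16.7%, against 12.4%), each searched on both strands. A match is a description of the letters and not evidence of binding.

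Markers of other cells followed the same order in part. The 12 leukocyte markers summed to 356 CPM in labelled-deleted tumour 1, 1180 CPM in labelled-deleted tumour 3, and 528 to 1010 CPM in the rest, and 7 erythroid genes to 45 CPM, 571 CPM and 139 to 405 CPM. The tumour lowest in endothelial genes was thus also lowest in these blood-cell genes, and the tumour with most genes at their peak was highest in them; their part in the endothelial values was not tested. By group, the leukocyte sum ran from 562 to 1010 CPM in wild-type and from 356 to 1180 CPM in labelled-deleted tumours, the epithelial sum from 5130 to 6360 and from 2020 to 5490 CPM, and the sum of 14 mural cell markers from 915 to 1490 and from 981 to 1420 CPM. The list of 10 platelet genes summed to 85.4 to 137 CPM, with its lowest value in labelled-deleted tumour 1. Of its members, Gp9 and Gp6 were at or near 0 in every library (at most 0.248 and 0.356 CPM). Itgb3, at 47 to 102 CPM, Pf4, at 16.6 to 29.9 CPM, Itga2b, at 3.13 to 20.3 CPM, and Ppbp, at 0.623 to 5.45 CPM, were present in all. Vwf and Selp, which platelets also carry, stood at 39.7 to 149 and 2.58 to 29.8 CPM.

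Levels of different genes were compared per kilobase of exons. Plvap, the protein of fenestral diaphragms, had the highest level, with a median over the 10 tumours of 87.1 CPM per kilobase (24 to 142). Eng, or endoglin, a co-receptor for BMP9 and BMP10, followed at 49.2 (9.01 to 70.3), and Cdh5 at 24.5 (14.7 to 34.2). Next in order came Sox18 at 20.3, the apelin receptor Aplnr at 19.2, Cd34 at 18, Pecam1 at 16.7 and the junction protein Esam at 14, and the ranges of these neighbours over tumours overlapped. The median of the 42 genes was 6.3 CPM per kilobase. At the low end stood Prox1 at 2.06 and Sele, the E-selectin of inflamed endothelium, at 0.795 (0.277 to 2.78) CPM per kilobase. The lowest count behind a value was 8 reads, for Sele, and 21 of the 42 genes had a library with fewer than 100 reads.

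The comparison asked how these genes differed between tumours labelled Grem1-deleted and wild-type. By edgeR's quasi-likelihood test 0 of the 42 passed an adjusted p of 0.05, and 0 of all 16565 genes tested did (0% of them). Their adjusted p-values ran from 0.759 to 1, all 42 had enough counts to be tested, and DESeq2 and limma-voom called 0 of them as well. DESeq2 called 0.0242% of all genes it tested. At an unadjusted p under 0.05 there were 3 of 42 genes, 7.14%, against 5.93% of all genes, so this share is near the background. Flt1 and Sele were those with higher values in the tumours labelled deleted (2 of 42, against 3.47% of all genes in that direction), and Angpt1 the one with lower values (1 of 42, against 2.46%). At that threshold the list of epithelial markers had 4 of 10 and that of fibroblast markers 2 of 10. In 0 of the 42 did the groups not overlap, against 0.93% of all genes. The log2 fold change of labelled-deleted over wild-type was below 0 in 32 of the 42 genes (76.2%, against 44.9% of all genes), with a median of -0.32 against 0.03 over all genes. Without labelled-deleted tumour 1 the count below 0 was 30 (71.4%, against 48.1% of all genes), and 3 genes had an unadjusted p under 0.05 (7.14%, against 5.42% of all genes). The median was -0.16 without that tumour and -0.63 without labelled-deleted tumour 3. Labelled-deleted tumours 1 and 2 were those with low epithelial and with intestinal transcripts. Without both, 21 of the 42 were below 0, against 50.7% of all genes, and the median was 0. Some other lists were also mostly below 0 with all 10 tumours. These were epithelial (9 of 10, median -0.44), fibroblast (7 of 10, -0.27) and erythroid markers (5 of 5 tested, -0.18). Leukocyte (7 of 12, -0.04), acinar (4 of 11 tested, 0.08) and mesothelial markers (2 of 6, 0.21) were below 0 less often. Such a tilt was thus not particular to endothelial genes.

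**Figure D2:**
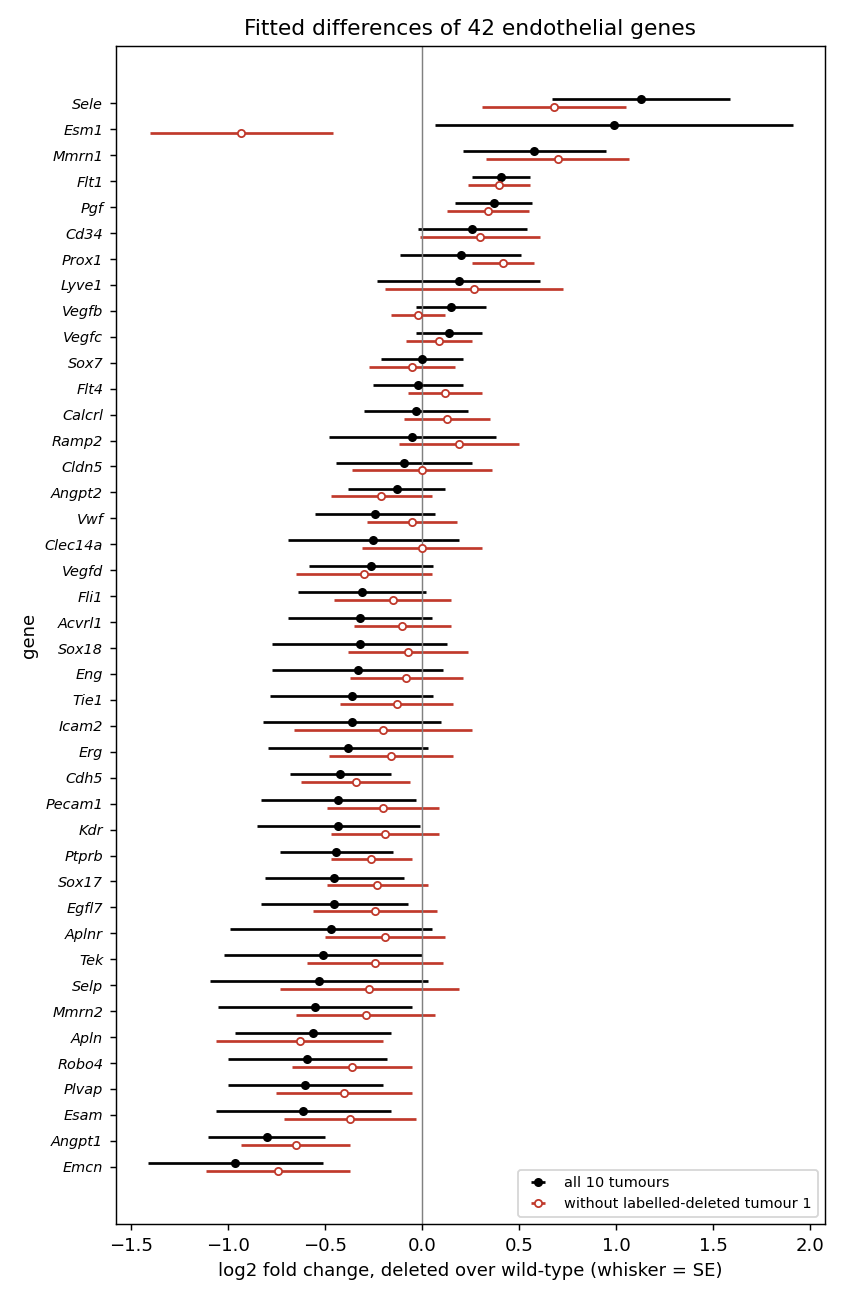
Fitted log2 fold change of each of the 42 genes, labelled deleted over wild-type, with its SE, from all 10 tumours (black) and without labelled-deleted tumour 1 (open red). Most black points lie left of 0 and move towards it without that tumour, and Esm1 goes from 0.99 to -0.93.

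Among the VEGF receptors, Kdr and Flt1 had different patterns. Kdr stood at 95.1, 41.5, 90, 83.8 and 69.3 CPM in wild-type tumours 1 to 5 and at 14.8, 44, 97.8, 51.5 and 72.8 CPM in labelled-deleted tumours 1 to 5. The log2 fold change of Kdr, a core gene, was -0.43 (SE 0.42), and -0.19 (SE 0.28) without labelled-deleted tumour 1. Flt1 stood at 83.3, 90.2, 80, 78.9 and 81.1 CPM in wild-type tumours and at 113, 112, 74.5, 147 and 103 CPM in those labelled deleted. All but 1 of the labelled-deleted tumours lay above every wild-type tumour and labelled-deleted tumour 3, the richest of its group in endothelial genes, lay below all of them. Flt1 averaged 82.7 ± 4.5 CPM in wild-type and 110 ± 25.8 CPM in labelled-deleted tumours (SD, n = 5). The log2 fold change of Flt1 (chr5:147561604-147726011, GRCm38) came to 0.41 (SE 0.15). edgeR's adjusted p over all genes was 0.759, and the exact two-sided permutation p 0.0476, unadjusted. Leaving out labelled-deleted tumour 1 gave a log2 fold change of 0.4 (SE 0.16). The ratio of Flt1 to Kdr within a tumour ran from 0.762 to 2.85 in the other 9 tumours and was 7.64 in labelled-deleted tumour 1. Flt4, the receptor of Vegfc and Vegfd, was at 42.9 to 82.4 CPM in wild-type and 35 to 76.8 CPM in labelled-deleted tumours, a log2 fold change of -0.02 (SE 0.23), and 0.12 without labelled-deleted tumour 1.

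Among the VEGF family ligands Vegfc had the smallest range over the 10 tumours of all 42 genes, 1.82-fold, and Vegfd ranged over 3.43-fold. Vegfc, the main lymphatic growth factor, was at 11.7 to 21.2 CPM in wild-type and 15.5 to 20.5 CPM in labelled-deleted tumours (log2 fold change 0.14, SE 0.17). Vegfb was at 11 to 14.5 and 11.1 to 20.6 CPM, with its highest value in labelled-deleted tumour 1, and Vegfd at 9.66 to 18.4 and 6.88 to 23.6 CPM. Placental growth factor, Pgf, a Flt1 ligand, was at 9.67, 5.65, 10.5, 7.93 and 9.88 CPM in wild-type tumours and at 11.9, 11.3, 14.6, 9.18 and 9.34 CPM in those labelled deleted. Labelled-deleted tumours 1, 2 and 3 lay above all wild-type tumours and the others within their range, and its log2 fold change was 0.37 (SE 0.2, exact two-sided permutation p = 0.0952). Vegfa, the main ligand of Kdr and not among the 42, ran from 128 to 238 CPM in wild-type and from 117 to 243 CPM in labelled-deleted tumours (-0.17, SE 0.23).

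In the angiopoietin system the ligand Angpt1, which pericytes and fibroblasts secrete to stabilise vessels through Tek, stood at 39.9, 31.8, 18.4, 30.3 and 23.7 CPM in wild-type tumours and at 9.25, 10.9, 16.2, 24.6 and 21.8 CPM in those labelled deleted. Labelled-deleted tumours 1, 2 and 3 lay below every wild-type tumour and the others within the wild-type range. The means were 28.8 ± 8.2 and 16.5 ± 6.65 CPM (SD, n = 5), and the log2 fold change of Angpt1 (chr15:42424723-42676977) was -0.8 (SE 0.3). The adjusted p over all genes, by edgeR, was 0.759, and the exact two-sided permutation p 0.0397, unadjusted. Leaving out labelled-deleted tumour 1 gave a log2 fold change of -0.65 (SE 0.28). Exons of Angpt1 share 737 bases with those of Gm17473 on the other strand, and no source used here says if strand entered the counting. Angpt2, the ligand that sprouting endothelium releases and that can oppose Angpt1, was at 9.56 to 18.6 and 7.24 to 15.2 CPM (log2 fold change -0.13, SE 0.25). The ratio of Angpt1 to Angpt2 within a tumour was 3.68, 3.32, 1.72, 1.63 and 1.96 in wild-type and 0.684, 1.5, 1.06, 2.06 and 2.53 in labelled-deleted tumours, so 3 of the labelled-deleted tumours lay below the wild-type range. Their receptor Tek, its partner Tie1 and the phosphatase Ptprb, which restrains Tek, were each lowest in labelled-deleted tumour 1, with log2 fold changes of -0.51 (SE 0.51), -0.36 (SE 0.42) and -0.44 (SE 0.29). Without that tumour they were -0.24, -0.13 and -0.26.

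**Figure D3:**
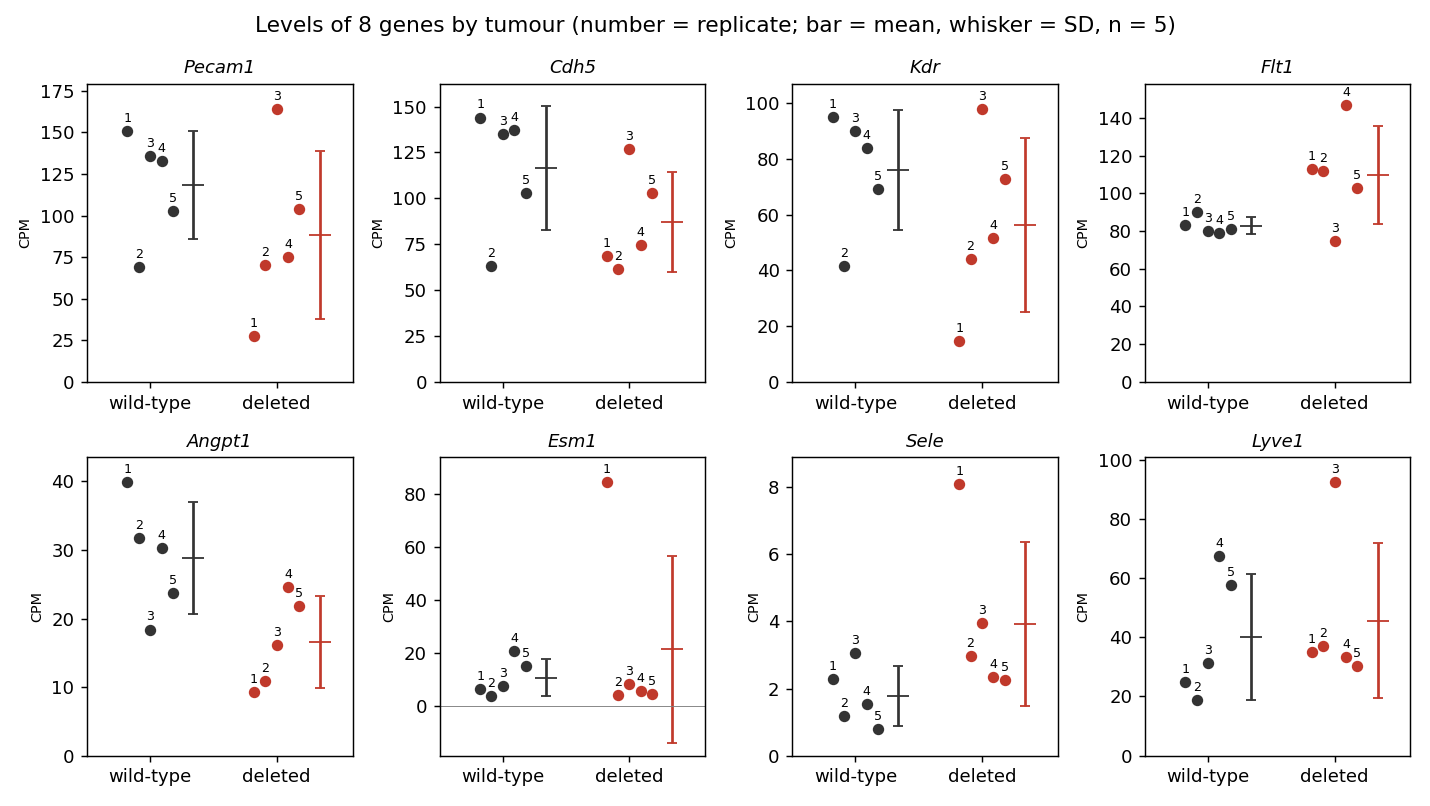
CPM of 8 genes in each tumour, with the replicate number beside each point and the mean and SD of each group (n = 5). Pecam1 and Kdr are lowest in labelled-deleted tumour 1, Esm1 and Sele are highest there, and labelled-deleted tumour 3 is the lowest for Flt1 and the highest for Lyve1.

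Of the 11 surface and junction genes 10 were below 0, with a median of -0.43 (-0.29 without labelled-deleted tumour 1). Emcn, endomucin, a sialomucin of venous and capillary endothelium, stood at 59.3, 17.7, 34.6, 42.6 and 27.8 CPM in wild-type tumours and at 5.78, 13.9, 28.1, 14.4 and 31.1 CPM in those labelled deleted. Labelled-deleted tumours 1, 2 and 4 lay below every wild-type tumour, and the log2 fold change was -0.96 (SE 0.45), the most negative of the 42 genes, with an exact two-sided permutation p of 0.0635. Esam was at -0.61 (SE 0.45), Plvap at -0.6 (SE 0.4), Robo4, a guidance receptor of vessels, at -0.59 (SE 0.41), the matrix protein Mmrn2 at -0.55 (SE 0.5), its binding partner Clec14a at -0.25 (SE 0.44), Icam2 at -0.36 (SE 0.46) and Cldn5, a tight junction protein, at -0.09 (SE 0.35). Pecam1 averaged 118 ± 32.6 and 88.2 ± 50.4 CPM and Cdh5 116 ± 33.7 and 87.1 ± 27.4 CPM (SD, n = 5), with log2 fold changes of -0.43 (SE 0.4) and -0.42 (SE 0.26), which were -0.2 and -0.34 without labelled-deleted tumour 1. These 2 genes kept a nearly fixed ratio: Cdh5 over Pecam1 was 0.776 to 1.03 in 9 tumours and 2.49 in labelled-deleted tumour 1. Cd34, which fibroblasts and blood progenitors also carry, was the member of the group above 0, at 0.26 (SE 0.28), with 232 and 231 CPM in labelled-deleted tumours 3 and 4 and 82.5 to 172 CPM elsewhere.

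All 5 transcription factors were at or below 0, with a median of -0.32: Sox17 at -0.45 (SE 0.36), Erg at -0.38 (SE 0.41), Sox18 at -0.32 (SE 0.45), Fli1, which leukocytes and megakaryocytes also express, at -0.31 (SE 0.33) and Sox7 at 0 (SE 0.21). Without labelled-deleted tumour 1 the median was -0.15, with Sox17 at -0.23, Erg at -0.16, Sox18 at -0.07, Fli1 at -0.15 and Sox7 at -0.05. Sox7 did not follow the other SOX factors in labelled-deleted tumour 1, where it held 14.2 CPM against 7.31 to 16 CPM elsewhere, whereas Sox17 held 5.87 CPM against 14.8 to 34.8 CPM and Sox18 6.67 CPM against 20.6 to 57.1 CPM. The BMP9 and BMP10 receptors of endothelium, Eng and Acvrl1, were at -0.33 (SE 0.44) and -0.32 (SE 0.37), and at -0.08 and -0.1 without labelled-deleted tumour 1. Eng ran from 143 to 285 CPM in wild-type tumours and was 36.5, 98.6, 282, 193 and 206 CPM in labelled-deleted tumours. The receptor for adrenomedullin, made of Calcrl and its partner Ramp2, was at -0.03 (SE 0.27) and -0.05 (SE 0.43), and at 0.13 and 0.19 without labelled-deleted tumour 1. Of the Ramp2 exons, 1103 bases are shared with Vps25.

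The 3 lymphatic genes had positive log2 fold changes. Mmrn1, a secreted multimerin of lymphatic endothelium and platelets, stood at 26.3, 17.6, 29.8, 14.1 and 7.26 CPM in wild-type and at 17.7, 22.6, 43.9, 27.8 and 30 CPM in labelled-deleted tumours, a log2 fold change of 0.58 (SE 0.37, exact two-sided permutation p = 0.143). Prox1, the lymphatic master regulator, which epithelial and neuroendocrine cells can also express, stood at 16.5, 16.4, 19.9, 16.1 and 17.9 CPM and at 6.76, 21.5, 28.5, 16.7 and 26.2 CPM. The log2 fold change of Prox1 was 0.2 (SE 0.31). Without labelled-deleted tumour 1 it was 0.42 (SE 0.16), and edgeR's adjusted p over those 9 libraries was 0.906. Lyve1, a hyaluronan receptor of lymphatic endothelium and some macrophages, stood at 24.9, 18.8, 31.3, 67.3 and 57.7 CPM and at 35, 37.2, 92.3, 33.4 and 30.2 CPM (log2 fold change 0.19, SE 0.42, and -0.25 without labelled-deleted tumour 3). Relative to the core within each tumour, the 3 genes summed to 8.26%, 14.8%, 11.6%, 14.2% and 15.9% in wild-type and to 32.3%, 22.6%, 20.8%, 19.6% and 15% in labelled-deleted tumours. All labelled-deleted tumours but the fifth lay above the wild-type range on this ratio, and the core in its denominator was itself lowest in labelled-deleted tumour 1 and lower on average in that group, at 461 ± 231 against 616 ± 180 CPM (SD, n = 5).

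Among the genes of activated and sprouting endothelium, Sele and Esm1 were highest in labelled-deleted tumour 1, where the core was lowest. Sele stood at 2.28, 1.18, 3.06, 1.53 and 0.807 CPM in wild-type and at 8.1, 2.98, 3.94, 2.35 and 2.24 CPM in labelled-deleted tumours. Labelled-deleted tumours 1 and 3 lay above every wild-type tumour. The log2 fold change of Sele (chr1:164048234-164057677) was 1.13 (SE 0.46), edgeR's adjusted p over all genes 0.759, and the exact two-sided permutation p 0.0556. Leaving out labelled-deleted tumour 1 gave a log2 fold change of 0.68 (SE 0.37). Esm1, a VEGF-induced proteoglycan of endothelial tip cells that some tumour cells also make, stood at 6.29, 3.83, 7.68, 20.8 and 15 CPM in wild-type tumours and at 84.5, 4.04, 8.29, 5.66 and 4.6 CPM in those labelled deleted. The fitted log2 fold change of 0.99 (SE 0.92) rested on that tumour and was -0.93 (SE 0.47) without it. Selp, the P-selectin stored with Vwf, did not go with Sele: it was 2.58 CPM in labelled-deleted tumour 1 and 6.62 to 29.8 CPM elsewhere (log2 fold change -0.53, SE 0.56, and -0.27 without that tumour). Vwf was at 86.5 to 130 CPM in wild-type and 39.7 to 149 CPM in labelled-deleted tumours (-0.24, SE 0.31, and -0.05 without labelled-deleted tumour 1). The apelin ligand Apln, another tip-cell gene, was at -0.56 (SE 0.4), its receptor Aplnr at -0.47 (SE 0.52) and the secreted Egfl7 at -0.45 (SE 0.38). Without labelled-deleted tumour 1 they were at -0.63, -0.19 and -0.24. Aplnr was 8.01 CPM in labelled-deleted tumour 1 and 35.7 to 113 CPM in the others.

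Each gene was also divided by the core within its tumour. Without labelled-deleted tumour 1, 9 of the 12 core genes varied less than 1.5-fold on this ratio, from 1.14-fold for Pecam1 upwards, and Cldn5 varied most, 3.51-fold. Each core gene is part of the sum it was divided by, so part of this small spread is built in. Pecam1 had the largest median share of that sum. How far the core genes vary together was therefore not tested by this ratio. In labelled-deleted tumour 1 the ratio of 16 of the 30 genes outside the core exceeded that of all other tumours (53.3%), and that of 6 lay below all others (20%). With the core at 184 CPM there and 356 to 820 CPM elsewhere, the ratio was highest in that tumour for 75% of all genes tested and lowest for 4.46%. A high ratio is thus the common case there: Vegfc, at 3.91-fold the median ratio of the other 9 tumours, had a level of 20.5 CPM, inside the range of the others. Relative to that median the ratio was 41.8-fold for Esm1, 11.3-fold for Sele, 5.3-fold for Vegfb, 3.99-fold for Pgf, 3.94-fold for Flt1, 3.81-fold for Sox7 and 3.65-fold for Angpt2. It was 0.317-fold for Aplnr, 0.427-fold for Tek, 0.446-fold for Mmrn2, 0.471-fold for Selp and 0.556-fold for Eng. Cdh5, itself a core gene, was at 2.08-fold. Of the genes whose promoters are shown above, Tek and Eng (0 and 2 ETS-type matches) thus lay at the low end, and Flt1, Sele and Esm1 (2, 1 and 0) at the high end. A high ratio does not show expression in endothelium, since other cells express several of these genes. In the same tumour the pericyte gene Rgs5 was at 22.3 CPM against 96.3 to 370 CPM elsewhere, while Cspg4, also a pericyte marker, was at 207 CPM against 28.5 to 95 CPM, and the broader stromal receptor Pdgfrb at 353 CPM against 153 to 225 CPM. Of the 14 mural cell markers 9 were lowest and 2 highest there.

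**Figure D4:**
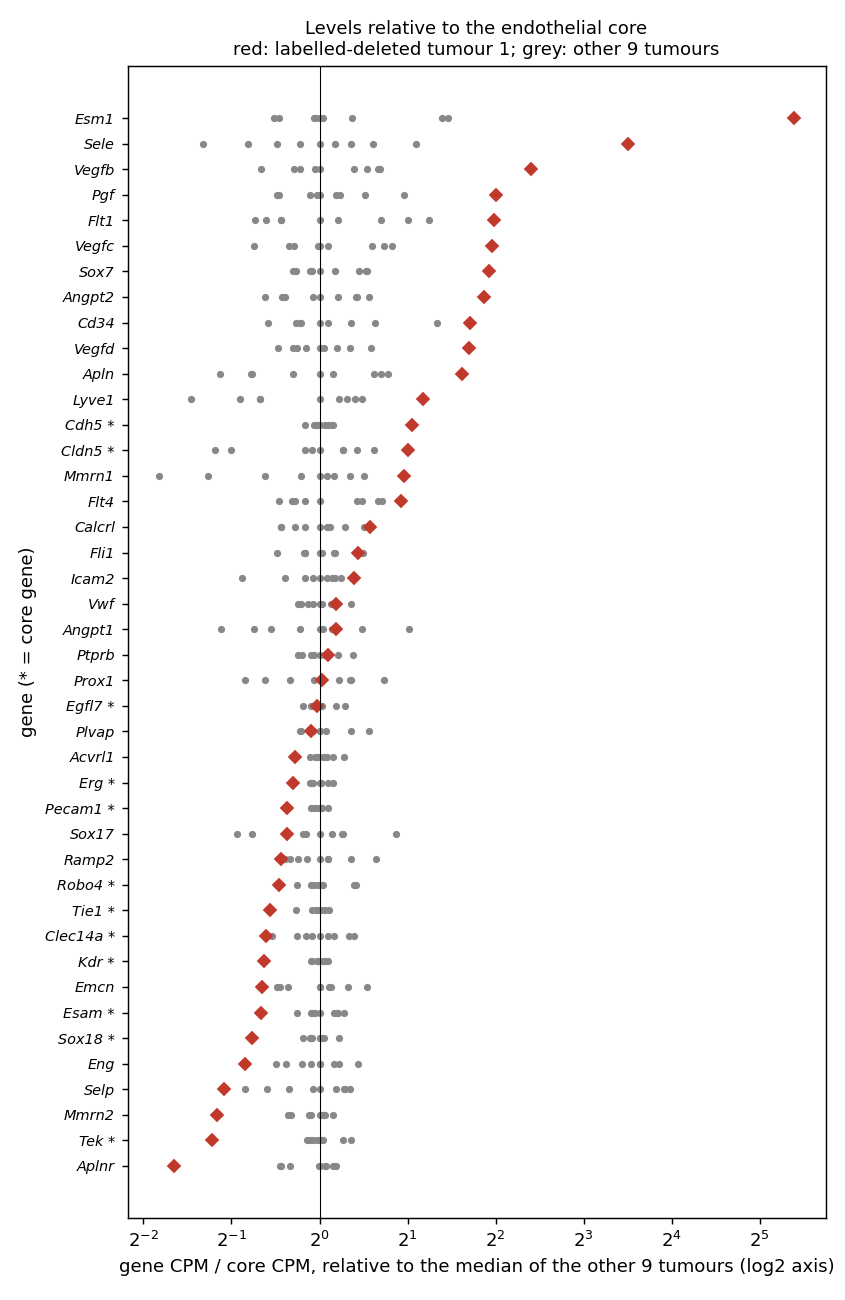
CPM of each gene divided by the summed core CPM of the same tumour, relative to the median of the other 9 tumours (log2 axis). Grey points are those 9 tumours and red diamonds labelled-deleted tumour 1, which reaches 41.8-fold for Esm1 and 0.317-fold for Aplnr.

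Other genes of the same systems, from fixed lists, were read the same way, and none passed the test. Of 36 other endothelial genes 27 were below 0, with a median of -0.26 (-0.08 without labelled-deleted tumour 1), and 0 had an unadjusted p under 0.05. The smallest p-values among them were those of Shank3 at 0.27 (SE 0.13), Afap1l1 at -0.4 (SE 0.22) and the adhesion receptor Adgrl4 at -0.75 (SE 0.42), and 31 of the 36 were lowest in labelled-deleted tumour 1. Of 25 further VEGF, Notch and semaphorin genes 13 were below 0, with a median of -0.06 (0.01 without labelled-deleted tumour 1). Among them Adm, adrenomedullin, the ligand of Calcrl with Ramp2, was at 1.29 (SE 0.49), with 37 CPM in labelled-deleted tumour 1 and 3.54 to 14.7 CPM elsewhere, Sema3f was at -0.67 (SE 0.27), and the endothelial Notch receptor Notch4 was at -0.61 (SE 0.26). Of 15 other lymphatic genes 6 were above 0, with a median of -0.02 (0.05 without that tumour). Flrt2 was at 0.96 (SE 0.32), Reln, reelin, at 0.86 (SE 0.41) and the chemokine Ccl21a at 1.1 (SE 0.77), whose near-identical copies make its count uncertain. Of the 20 partners of endoglin and Acvrl1 signalling 17 were tested, with 10 above 0 and a median of 0.17. Without labelled-deleted tumour 1, where 7 of the 20 had their highest value, the median was 0.04. Bmp2 was at 2.03 (SE 0.59), with 80.4 CPM in that tumour and 4.09 to 32.2 CPM elsewhere, the inhibitory Smad7 at 0.34 (SE 0.14) and Smad5 at 0.19 (SE 0.09), while the ligands Gdf2 (BMP9) and Bmp10 were at no more than 0.182 and 0.089 CPM in any tumour. The 14 mural cell markers of pericytes and smooth muscle had a median of 0.03, with 7 above and 7 below 0 (-0.03, with 5 above and 9 below, without labelled-deleted tumour 1). Higd1b was at -0.73 (SE 0.51), Ndufa4l2 at -0.35 (SE 0.27), and the smooth muscle myosin Myh11 at 0.95 (SE 0.67), with 170 CPM in labelled-deleted tumour 2, the tumour with intestinal transcripts, and 7.3 to 61.8 CPM elsewhere. The p-values measure the spread between these tumours, which the series describes as biological replicates.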

How the data were processed

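Polyadenylated RNA of 10 pancreatic tumours was prepared with a KAPA mRNA HyperPrep kit and sequenced on an Illumina instrument, per the labels' protocols. The authors deposited estimated counts per gene for all 10 libraries. The submitters' processing notes name build mm10, DESeq2 1.32.0, RSEM 1.3.3, HISAT2 2.2.1, FastQC 0.11.9 and bcl2fastq 2.0. Annotation release and strand setting: not given in the sources used here. Log2 values per tumour, also deposited (25407 genes, kind of transformation not named), were used for 1 alternative alone.

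Estimated counts (7.96% not whole) were rounded. Genes were kept by filterByExpr of edgeR 4.0.16 (minimum count 10), scaled by TMM and compared by its robust quasi-likelihood test without covariates, with Benjamini-Hochberg adjustment over all 16565 genes tested and a threshold of 0.05. SEs came from the F statistic. Exact two-sided permutation tests used log2 CPM (prior count 2) over all 252 assignments, with a smallest possible p of 0.00794. With a common biological coefficient of variation of 0.355, precision was set mainly by the spread between tumours. Libraries of the same group all differed beyond sampling noise (lowest chi-square per degree of freedom 26.1). Lower values occurred across groups: 13.4 for wild-type tumour 2 with labelled-deleted tumour 4, and 18.8 for wild-type tumour 5 with labelled-deleted tumour 5. Exon lengths and coordinates are from GENCODE M21 (GRCm38), in which all 42 genes were found, and 9 of the 42 share exon bases with another gene.

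The pipeline was tested on simulated data for 5 against 5 tumours, with each gene drawn independently around a mean shared by the libraries. No library was made to stand apart and genes did not vary together, so the rates may not hold for the real tumours. Over 16352 genes edgeR recovered 12% of genes changed 1.5-fold, 44% at 2-fold, 88% at 4-fold and 92% at 8-fold, and 3.28% of its calls were unchanged genes. The members, the core and the other gene lists were chosen with earlier results of these data known. All 42 members are named, with Grem1 and defining markers. The 3 genes of smallest p are named for the lists of other endothelial, VEGF, lymphatic, BMP partner and mural genes. The remaining lists are given by sums, counts, medians or single markers, without that rule. Pdgfrb and Cspg4 were added after their values were seen. Alternatives were DESeq2 1.42.0, limma-voom (limma 3.58.1), other scalings and filters, blocks by replicate and tumour ID number, an acinar covariate, the deposited log2 values, and leaving out libraries. R was 4.3.3, Python 3.11.15 and matplotlib 3.10.9.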

Additional observations from a re-analysis of the deposited data

Results flagged for a closer look

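In 84 groups of 5 values (42 genes in 2 groups) 3 tumours stood far from the others of their group, where chance gives about 1 in 20. Esm1 was at 84.5 CPM in labelled-deleted tumour 1, against 4.04 to 8.29 CPM in the other 4 labelled-deleted tumours. Lyve1 was at 92.3 CPM in labelled-deleted tumour 3, against 30.2 to 37.2 CPM in the others of that group. Angpt2 was at 18.6 CPM in wild-type tumour 4, against 9.56 to 12.1 CPM in the other wild-type tumours.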

How the results depend on the processing

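None of the 42 genes passed the threshold under any of the 11 alternatives or without any of the 10 libraries; the lowest adjusted p was 0.507. Over all genes the count was 0 in each of these except DESeq2, which called 7, none a member. Of 461 values of single genes under the 11 alternatives 429 kept their direction and 32 did not, and 25 of the 42 genes kept theirs throughout. The cause of each reversal was not tested. The count below 0 ran from 27 to 33 of 42 when 1 library was left out, and was 26 with the tumour ID number as a block and 21 without labelled-deleted tumours 1 and 2. Of all genes, 44% to 48.3%, 49.3% and 50.7% were below 0 in these fits, in the same order. Labelled-deleted tumours 1 and 4 are each alone in their tumour ID number (25 and 39). With that block they therefore added nothing to the difference between groups. The median log2 fold change ran from -0.63 to -0.16 when 1 library was left out. Without labelled-deleted tumours 1 and 2 it was 0, and Cldn5 was at 0.11, Clec14a 0.18, Flt4 0.22, Tie1 0.02, Fli1 0.03, Sox7 0.13, Sox18 0.11, Eng 0.14, Acvrl1 0.06, Ramp2 0.38, Calcrl 0.24, Vwf 0.1 and Esm1 -0.8. With the tumour ID number as a block, whose meaning the labels do not give, Cldn5 was at 0.12, Clec14a 0.07, Flt4 0.12, Vegfb -0.01, Sox18 0.03, Ramp2 0.14, Calcrl 0.14, Vwf 0.04, Selp 0 and Esm1 -0.6. With the replicate number as a block (replicate block) Cldn5 was at 0.03 and Esm1 at -0.12, and the median was -0.42. Same-numbered tumours deviated together with correlations from -0.02 to 0.39, and 2 of 5 correlated best with their own number. The highest correlations were 0.32 for number 3 and 0.39 for number 5, pairs that also share a tumour ID number (38 and 40). So few correlations cannot decide whether the numbers pair tumours. With the block 0 genes were called, as without it. With limma-voom Cldn5 was at 0.04 and Esm1 at -0.11, with the deposited log2 values Cldn5 was at 0.01, and with the acinar covariate Flt4 was at 0. Sox7, at 0, changed sign within rounding (0) with DESeq2, RLE scaling and the stricter filter, which left Sele out. When 1 library was left out, values that crossed 0 ran from -0.27 to 0.11 for Cldn5, -0.14 to 0.14 for Flt4, -0.02 to 0.23 for Vegfb, -0.27 to 0.06 for Angpt2, -0.1 to 0.14 for Sox7, -0.44 to 0.19 for Ramp2, -0.18 to 0.13 for Calcrl, -0.25 to 0.46 for Lyve1 and -0.93 to 1.38 for Esm1. Scaling by total counts moved the mean core level by less than the SD of its group, and leaving 1 gene out of the core kept the count of 16 genes within 1.5-fold.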
